A study of Mus musculus with 6 samples.

Results

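The Deltex family was examined in sorted AE9a leukemia cells of the mouse, through the 5 genes Dtx1, Dtx2, Dtx3, Dtx3l and Dtx4 among the 23608 rows of the count table. The genes were found by their symbols, and the family was chosen by the tamoxifen values of Dtx4, which were known from an earlier look at these libraries. The values of the family members between oil and tamoxifen are therefore a description. Calls given for them further on are not read as a test of the family.

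Deltex proteins are E3 ubiquitin ligases that end in a RING domain and a Deltex C-terminal domain, and the latter binds ADP-ribose. Deltex was found in the fly as a regulator of the Notch receptor, and mammalian DTX1, DTX2 and DTX4 carry the WWE domains with which it binds Notch. DTX3L works as a partner of PARP9 and belongs to the interferon response, and DTX4 has been linked to ubiquitination of TBK1, a kinase upstream of type I interferon.

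All 6 libraries came from leukemia cells with 1 floxed copy of Usp18 (Usp18+/f) and UBCER-Cre, a Cre recombinase that is made in all tissues and is activated by tamoxifen. AE9a, a truncated AML1-ETO fusion, had been carried into fetal liver cells by a GFP retrovirus, and the leukemia was passed to irradiated C57BL/6 recipients. Sick recipients received oil (3 libraries, genotype Usp18+/f) or tamoxifen (3 libraries, genotype labelled Usp18+/D, in which the floxed copy should be lost). On day 3 after the first injection, Lin- c-Kit+ GFP+ cells of the spleen were collected by sorting. Recipients were young adult mice of both sexes by the study's methods, the study used 3 mice per group, and all 6 titles carry the same batch label. Only tamoxifen recipients were given the drug, so the drug and the loss of the floxed copy cannot be told apart in this design.

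The libraries held 17118964 to 20741399 counts. CPM are counts scaled to a common library size over the tested genes, with TMM factors. Kit was at 439 to 451 CPM in oil and at 651, 782 and 447 CPM in tamoxifen 1, 2 and 4 (log2 fold change 0.49, SE 0.18, edgeR adjusted p-value 0.202). Runx1 was at 545 to 582 CPM in oil and 638 to 809 CPM in tamoxifen (log2 fold change 0.35, SE 0.11, edgeR adjusted p-value 0.134). The myeloid markers Mpo and Flt3 did not exceed 0.207 and 0 CPM. Of the leukemia and progenitor markers edgeR called Cd34, a progenitor surface marker, at 9.68, 8.41 and 11.7 CPM in oil and 113, 134 and 41.8 CPM in tamoxifen (log2 fold change 3.27, SE 0.41, edgeR adjusted p-value 0.0232). Of the 6 leukemia and progenitor markers tested, edgeR called 1 higher and 0 lower, DESeq2 2 and 0, and limma-voom 0. Without tamoxifen 4, edgeR called 5 of the 6 higher and 0 lower, beside 2278 and 2024 of 11851 genes tested in that fit. The mast cell genes summed to 2378 to 2645 CPM in oil and 3111 to 6854 CPM in tamoxifen. Of the 9 mast cell markers tested, edgeR called 2 higher and 0 lower, and 7 and 0 had an unadjusted p-value under 0.05. DESeq2 called 7 and 0 of them, and limma-voom 0. Over the 11614 genes tested, edgeR called 203 higher and 31 lower, and DESeq2 713 and 231. Of these genes, 2391 had an unadjusted p-value under 0.05 by edgeR. Of the T and NK cell markers Nkg7 was called higher by edgeR (1.13 to 2.47 CPM in oil, 7.65 to 56.4 CPM in tamoxifen), with Cd3e, Cd3g, Cd8a, Ncr1 and Klrb1c at 0 in all libraries, and the macrophage markers summed to 4.56 to 8.75 CPM in oil and 7.07 to 14.9 CPM in tamoxifen. The highest value of any B cell marker was 0.823 CPM and of any neutrophil marker 0.617 CPM. The part of these cells in the values below was not tested. Usp18 had 9.12, 10.9 and 11.2 CPM in the oil libraries against 15.1, 28.0 and 19.4 CPM in the tamoxifen libraries, so the transcript to be depleted was not lower under the label of depletion (log2 fold change 0.998, SE 0.23, edgeR adjusted p-value 0.0739). Usp18 was called higher with DESeq2 (adjusted p-value 0.00199) and by edgeR without a low-count filter (0.0395) or without tamoxifen 4 (0.00654), and its adjusted p-value was at most 0.295 over the alternatives. Directions are therefore between libraries labelled oil and libraries labelled tamoxifen. Tamoxifen 4 lay closer to the oil libraries than tamoxifen 1 and 2 did for many genes. Calls that changed without it are given both ways for the members, Usp18, the neighbors and the genes picked from each list by rule. For genes added after their values were seen, such calls are not given gene by gene.

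Start regions of 3 of the 5 genes (Dtx1, Dtx2 and Dtx3l) were listed in the RefSeq promoter table, build GRCm38.p6, each as 250 bases before and 50 bases after the start. Both strands were searched for the core of the interferon-stimulated response element (GAAANNGAAA), for the STAT dimer core (TTCNNNGAA) and for the core bound by RBPJ, the DNA-binding partner of Notch (TGGGAA). Of 32851 promoters in the table, 3.44% held the first, 8.30% the second and 25.6% the third. Neither Dtx1 nor Dtx3l held any of these letters, and Dtx2 held 1 STAT core and, overlapping it on the other strand, 1 RBPJ core, 23 bases before the start. The region of Dtx2 (chr5:135994550-135994849, plus strand) is shown for that match, in capitals. That of Dtx3l (chr16:35938978-35939277, minus strand) is shown because the 5′ end of Dtx3l overlaps Parp9 on the opposite strand, and this pair is compared further on.
Dtx2: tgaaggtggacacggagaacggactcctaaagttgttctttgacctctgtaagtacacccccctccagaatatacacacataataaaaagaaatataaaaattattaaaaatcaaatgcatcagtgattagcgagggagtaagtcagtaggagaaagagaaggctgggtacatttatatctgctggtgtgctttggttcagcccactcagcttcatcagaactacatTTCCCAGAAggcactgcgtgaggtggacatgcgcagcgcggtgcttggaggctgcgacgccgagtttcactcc
Dtx3l: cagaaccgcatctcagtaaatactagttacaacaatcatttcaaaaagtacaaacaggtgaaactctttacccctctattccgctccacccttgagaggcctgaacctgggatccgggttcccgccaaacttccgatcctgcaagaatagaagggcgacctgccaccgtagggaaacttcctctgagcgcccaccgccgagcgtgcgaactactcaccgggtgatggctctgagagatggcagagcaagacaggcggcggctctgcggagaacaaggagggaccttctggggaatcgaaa
A match to such letters is not evidence of a bound factor, nor is the lack of one evidence against it.

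Dtx4 was low in oil and high in tamoxifen. Dtx4 (ENSMUSG00000039982.8, chromosome 19, 12466338 to 12501454, minus strand, mm10) had 5.43, 18.0 and 7.28 CPM in oil 1, 3 and 4, whereas tamoxifen 1, 2 and 4 had 227, 177 and 165 CPM. Every tamoxifen library stood far above every oil library, and tamoxifen 4, unlike for many other genes, stood with the other tamoxifen libraries. These values rest on 96.5 to 370.5 counts in oil and 2994.5 to 4139.5 counts in tamoxifen. The group means were 10.2 ± 6.76 and 190.0 ± 32.7 CPM (SD, n = 3 each), an 18.6-fold ratio of means, and the fitted log2 fold change was 4.21 (SE 0.41). In bulk libraries, a larger number of cells that hold a transcript and more RNA per cell cannot be told apart.

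The oil libraries were less even than the tamoxifen libraries. The highest oil value was 3.31 times the lowest, against 1.37 times in tamoxifen, and the spread came from oil 3. Without oil 3, the fitted log2 fold change rose to 4.89, which is 29.7-fold in place of 18.5-fold. The lowest tamoxifen value was still 9.21 times the highest oil value. Among 11137 tested genes with a mean of at least 1 CPM, Dtx4 was the 21st by log2 fold change, and 9 genes had a larger ratio of lowest tamoxifen to highest oil library. Of the 53 genes with a log2 fold change of at least 3, the highest tamoxifen library was a median of 5.77 times the lowest, and in 6 of them, Dtx4 included, it was under 2 times. The others were Esrrb, Ano3, Adgrl3, Pkp1 and Fkbp5, named here after their values were seen, and of the 6 Dtx4 was the most abundant.

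**Figure D1:**
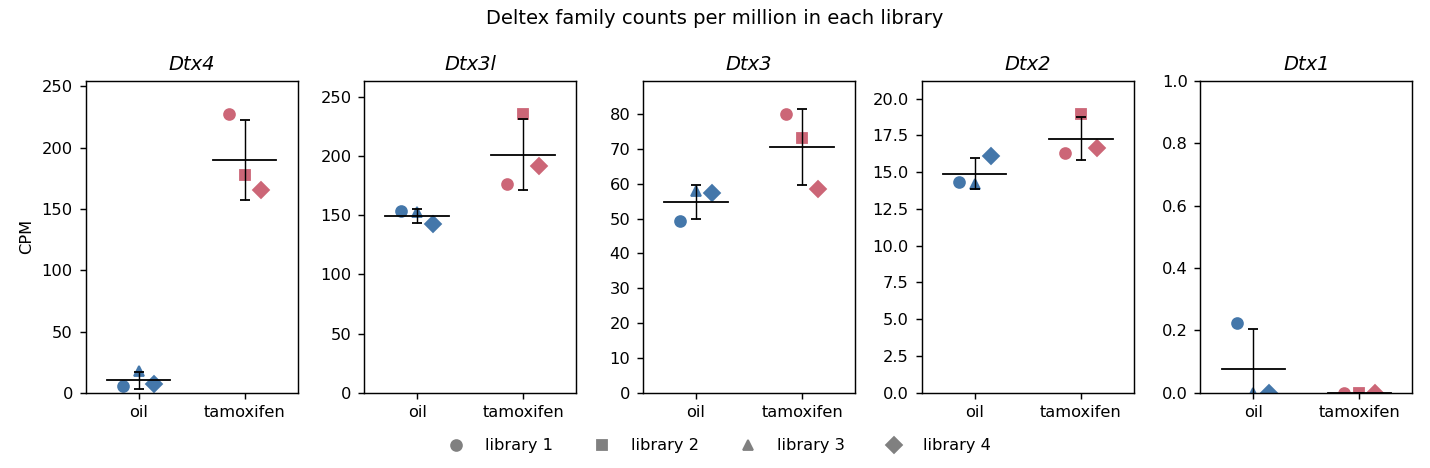
CPM of each Deltex gene (y axis, from 0, a scale of its own in each panel) in the oil (blue) and tamoxifen (red) libraries, with the marker shape giving the library number, a line at the mean and bars of 1 SD. Dtx4 lay at 5.43 to 18.0 CPM in oil and 165 to 227 CPM in tamoxifen, while Dtx3l, Dtx3 and Dtx2 had ratios of means of at most 1.35 and Dtx1 was near 0.

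The other expressed members differed far less. Dtx3l (ENSMUSG00000049502.17, chromosome 16, 35926511 to 35939151, minus strand), the ligase partnered with PARP9, had 153, 152 and 142 CPM in oil 1, 3 and 4, whereas tamoxifen 1, 2 and 4 had 177, 235 and 192 CPM. The groups did not overlap, with the highest value in tamoxifen 2. The means were 149 ± 6.25 and 201 ± 30.3 CPM (SD, n = 3 each), and the log2 fold change was 0.43 (SE 0.12). Dtx3l overlaps Parp9 by 682 bases on the opposite strand, and the strand setting of the counting was not stated, so reads from the shared stretch cannot be assigned with certainty.

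Dtx3 (ENSMUSG00000040415.15, chromosome 10, 127190378 to 127195728, minus strand), a short member without the N-terminal Notch-binding part, had 49.2, 57.8 and 57.4 CPM in oil 1, 3 and 4, whereas tamoxifen 1, 2 and 4 had 79.9, 73.2 and 58.6 CPM. Tamoxifen 4 barely exceeded the oil libraries, by 58.6 against at most 57.8 CPM. The means were 54.8 ± 4.82 and 70.5 ± 10.9 CPM (SD, n = 3 each), and the log2 fold change was 0.36 (SE 0.13). A long non-coding gene, F420014N23Rik, overlaps Dtx3 by 480 bases on the other strand, and its own values ran from 17.8 to 23.1 CPM with overlapping groups.

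Dtx2 (ENSMUSG00000004947.15, chromosome 5, 135994800 to 136032872, plus strand), a Notch-binding member, had 14.4, 14.2 and 16.1 CPM in oil 1, 3 and 4, whereas tamoxifen 1, 2 and 4 had 16.3, 18.9 and 16.7 CPM. The groups nearly touched, 16.1 CPM in oil 4 being next to 16.3 CPM in tamoxifen 1. The means were 14.9 ± 1.06 and 17.3 ± 1.43 CPM (SD, n = 3 each), and the log2 fold change was 0.21 (SE 0.13). Dtx1 (ENSMUSG00000029603.15, chromosome 5, 120680202 to 120711927, minus strand), the member known from lymphocytes, had 4 counts in oil 1 and 0 in the other 5 libraries. A count of 0 allows up to 3 counts, or 0.145 to 0.177 CPM, which covers counting error only. Dtx1 did not pass the filter on low counts and no fold change is given.

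Of the 5 genes, 4 passed the filter, and the tamoxifen libraries lay above the oil libraries for all 4 of these, where this held for 13.3% of the 11614 genes tested. By edgeR with an adjusted p-value under 0.05, 1 of the 4 was called higher (Dtx4) and 0 lower, where 2.01% of the tested genes were called, 1.75% higher and 0.267% lower. At an unadjusted p-value under 0.05, Dtx3l and Dtx3 were added, and DESeq2 called Dtx4 and Dtx3l. Because the family was chosen for Dtx4 in this contrast, nothing is read from these counts. Without oil 4 none of the 4 passed by edgeR. Dtx4 was then at a log2 fold change of 4.01, and 1517 genes had an unadjusted p-value under 0.05. Without tamoxifen 4, 3 of the 4 members passed (Dtx4, Dtx3l and Dtx3), where 2278 of 11851 genes were called higher and 2024 lower. These counts are likewise not read as a result.

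Levels were compared between members only per kilobase of their main GENCODE transcript, from 1944 bases for Dtx3 to 5309 bases for Dtx3l. In oil, Dtx3 (28.2 ± 2.48 CPM per kilobase, SD, n = 3) and Dtx3l (28.1 ± 1.18) led and overlapped each other, so their order was not resolved. Dtx2 followed at 5.81 ± 0.413 and Dtx4 at 1.96 ± 1.29 CPM per kilobase, and these 2 did not overlap, with Dtx2 at 5.54 to 6.29 and Dtx4 at 1.04 to 3.44. On the longest Dtx2 transcript, of 5420 in place of 2562 bases, the oil mean of Dtx2 was 2.75 CPM per kilobase, within the range of Dtx4, so the order of Dtx2 and Dtx4 in oil depended on the transcript.

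In tamoxifen, Dtx4 stood with the leading members. Dtx3l was at 37.9 ± 5.70, Dtx4 at 36.4 ± 6.26 and Dtx3 at 36.3 ± 5.60 CPM per kilobase (SD, n = 3 each), and their ranges overlapped. Dtx4 had rank 1 of the 5 members in tamoxifen 1, rank 3 in tamoxifen 2 and rank 2 in tamoxifen 4, against rank 4 in each oil library. Its share of the summed family level was 1.71%, 5.10% and 2.18% in oil 1, 3 and 4, whereas tamoxifen 1, 2 and 4 gave 35.0%, 27.6% and 30.3%. The family sum went from 60.9 to 67.4 CPM per kilobase in oil to 104 to 124 in tamoxifen. Without Dtx4 the sum was 59.9 to 64.0 in oil and 72.8 to 89.3 in tamoxifen.

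**Figure D2:**
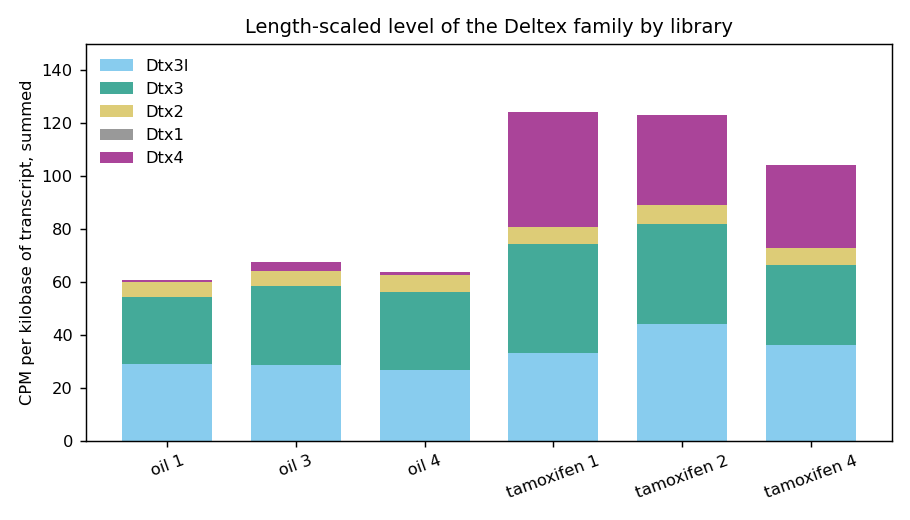
Level of each Deltex gene in CPM per kilobase of transcript (y axis, stacked from 0) in the 6 libraries (x axis), each color 1 gene. Dtx4, at the top of each bar, made up at most 5.10% of the oil sums and at least 27.6% of the tamoxifen sums, and Dtx1 is too low to be seen.

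The genes on either side of each member were then compared, to see whether a member moved with its neighbors. Up to 3 tested protein-coding genes on each side gave 30 neighbors, of which 14 lay above 0 on the log2 scale and the median was -0.07. By edgeR 0 of the 30 passed an adjusted p-value of 0.05 in either direction. At an unadjusted p-value under 0.05, 4 were higher and 2 lower, beside 2391 of 11614 genes in either direction. DESeq2 called 1 (Parp9), beside 713 genes higher and 231 lower, and limma-voom called 0 of the 30. Without tamoxifen 4, edgeR called 6 neighbors higher and 4 lower, beside 2278 and 2024 of 11851 genes tested in that fit. The neighbors called higher were Glyat, Oas3, Parp9, Ssc4d, Oas1c and Parp14, with log2 fold changes of 1.17, 0.78, 0.66, 0.66, 0.55 and 0.28 in that fit. The neighbors called lower were Slc26a10, Fam111a, Lrwd1 and Kpna1, with -1.30, -0.62, -0.47 and -0.33.

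Around Dtx4, the nearest gene was Mpeg1, which encodes the macrophage pore protein perforin-2 and ends 1.04 kb from Dtx4. Mpeg1 was at 0.957, 0.775 and 0.0514 CPM in oil and 1.43, 1.42 and 1.35 CPM in tamoxifen, with a log2 fold change of 1.22 (SE 0.66, edgeR adjusted p-value 0.317). It was thus far below Dtx4 in every library. On the other side, Fam111a, a protease of the DNA replication machinery, was 71.3 kb away by RefSeq positions. In the GENCODE annotation Fam111a starts nearer, at 12545740. Its log2 fold change was -0.34 (SE 0.21, edgeR adjusted p-value 0.372). Beyond it were Gm4952 with -0.98 and Glyat with 1.11, both at most 2.69 CPM in every library. Osbp and Patl1, 472 and 521 kb away, had 0.01 and 0.07. Across this stretch no neighbor had a log2 fold change near the 4.21 of Dtx4.

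Around Dtx3l, Parp9, which encodes its partner, had 116, 126 and 117 CPM in oil 1, 3 and 4, whereas tamoxifen 1, 2 and 4 had 155, 223 and 149 CPM. The groups did not overlap and tamoxifen 2 was highest, as for Dtx3l. The log2 fold change of Parp9 was 0.56 (SE 0.16, edgeR adjusted p-value 0.113), beside 0.43 for Dtx3l, and DESeq2 gave Parp9 an adjusted p-value of 0.0205. Parp14, another interferon-linked ADP-ribosyltransferase on the other side, had 0.22 (SE 0.11, edgeR adjusted p-value 0.292), and Kpna1 and Wdr5b, beyond Parp9, had -0.20 and -0.30.

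Around Dtx1, the neighbors were the oligoadenylate synthetase genes Oas2, Oas3 and Oas1c, interferon-induced RNA sensors, with log2 fold changes of 0.09, 0.68 and 0.38, and Ddx54, Rita1 and Iqcd, between -0.18 and -0.10. The sign of Oas2 changed with the processing. Dtx1 stayed at 0 in tamoxifen 2, in which Oas3 reached 177 CPM. Around Dtx2, the neighbors ran from -0.28 for Lrwd1 to 0.57 for Ssc4d, and around Dtx3 from -0.85 for Slc26a10 to 0.07 for Dctn2, with Arhgef25 (-0.12) and Pip4k2c (-0.19) closest to Dtx3.

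**Figure D3:**
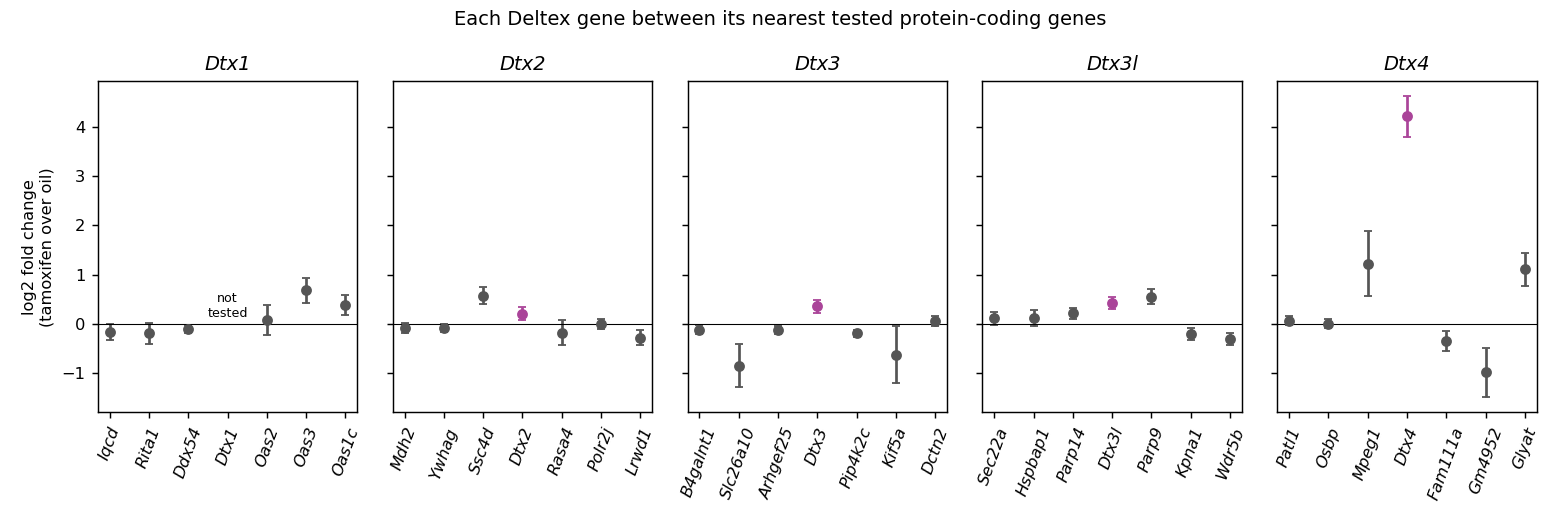
Log2 fold change of tamoxifen over oil (y axis) for each Deltex gene (purple) and its nearest tested protein-coding genes in chromosome order (x axis, evenly spaced, not to genomic scale), with bars of 1 SE. Dtx4 stood at 4.21 between Mpeg1 at 1.22 and Fam111a at -0.34, whereas Dtx3l at 0.43 stood beside Parp9 at 0.56.

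The Notch pathway and the partners of the Deltex proteins were described as lists, to place the family among the genes it works with. Of 69 such genes in the table apart from the family, 50 were tested, and 33 of these lay above 0 on the log2 fold change scale. Their median was 0.08 beside 0.00 over all genes tested. By edgeR 2 were called higher (Numbl and Rnf128) and 0 lower, which is 4.0% beside 2.01% of all genes. At an unadjusted p-value under 0.05, 11 were higher and 1 lower, beside 2391 of 11614 genes in either direction. DESeq2 called 6 higher and 0 lower, beside 713 and 231 of 11614 genes, and limma-voom 0 in either direction. Without tamoxifen 4, edgeR called 15 of these 50 higher and 3 lower, beside 2278 and 2024 of 11851 genes tested in that fit.

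Among Notch receptors and ligands, 3 of 9 were tested and edgeR called 0, with 0 at an unadjusted p-value under 0.05 and 0 in DESeq2. Notch2 was the only abundant receptor, at 259 to 308 CPM in oil and 256 to 309 CPM in tamoxifen, a log2 fold change of 0.02 (SE 0.11). Notch4 (0.31) and the ligand gene Jag2 (0.53, SE 0.34, edgeR adjusted p-value 0.388) were at most 1.60 CPM in every library. Notch1 was at 0.309 to 0.422 CPM in oil and 2.06, 1.48 and 0.442 CPM in tamoxifen and was not tested. Notch3, which is also on the list of Notch target genes, was not tested either. It was at 0 to 0.0514 CPM in oil and 0.274, 0.620 and 0.635 CPM in tamoxifen 1, 2 and 4. The ligand genes Dll1 and Dll4 had 0 counts in all 6 libraries. The genes for processing of the receptor included 13 tested, of which edgeR called 0, 2 higher and 0 lower had an unadjusted p-value under 0.05 and DESeq2 called 1. Furin, whose protease cleaves the Notch precursor, had the largest difference of these, at 198.7, 197.9 and 174.3 CPM in oil and 376, 462 and 195 CPM in tamoxifen (log2 fold change 0.85, SE 0.27, edgeR adjusted p-value 0.149), followed by the fringe glycosyltransferase Mfng with 0.67. Furin was called with DESeq2 (adjusted p-value 0.0200) and, by edgeR without tamoxifen 4, at 1.14 (adjusted p-value 5.1e-05).

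Of the nuclear complex and trafficking regulators, 18 were tested. Numbl, which encodes a Numb-like endocytic adaptor, rose from 1.26 to 1.70 CPM in oil to 4.97, 5.90 and 3.01 CPM in tamoxifen 1, 2 and 4 (log2 fold change 1.64, SE 0.33, edgeR adjusted p-value 0.0491). Its adjusted p-value ran from 0.00055 to 0.239 over the alternatives, and of the 6 fits that left out a library the call was kept in 1, without tamoxifen 4. Maml3, a coactivator of the Notch complex, had the largest difference, from 1.52 to 1.94 CPM in oil to 12.05, 8.68 and 2.04 CPM in tamoxifen (log2 fold change 2.09, SE 0.57, edgeR adjusted p-value 0.106). Tamoxifen 4 was next to the oil libraries for Maml3, which it was not for Dtx4. Maml3 was called with DESeq2 (adjusted p-value 0.00318) and, by edgeR without tamoxifen 4, at 2.55 (adjusted p-value 8.82e-05). Rbpj was at 47.2 to 54.5 CPM in oil and 50.2 to 55.3 CPM in tamoxifen.

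Of the Notch target genes, 5 apart from the family were tested and edgeR called 0, with 0 at an unadjusted p-value under 0.05 and 0 in DESeq2. Hes1, the classic Notch target, was at 46.3, 35.7 and 42.3 CPM in oil and 34.2, 61.3 and 44.9 CPM in tamoxifen, and the groups overlapped. Nrarp, a feedback inhibitor of Notch, was at 31.1 to 35.9 CPM in oil and at 16.7, 19.7 and 39.3 CPM in tamoxifen 1, 2 and 4 (log2 fold change -0.41, SE 0.29, edgeR adjusted p-value 0.427). Without tamoxifen 4 it was -0.88 with an edgeR adjusted p-value of 0.00063. Hey2 had -0.28 with a sign that changed with the processing.

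Among the 8 tested partners of the Deltex proteins, edgeR called 0, 3 higher and 0 lower had an unadjusted p-value under 0.05 and DESeq2 called 1, Parp9. Parp9 (0.56) and Arrb2, a beta-arrestin (0.48, SE 0.22, edgeR adjusted p-value 0.263), had the largest positive differences. Without tamoxifen 4 edgeR called 4 of the 8 higher and 1 lower, beside 2278 and 2024 of 11851 genes tested in that fit. Parp9 and Arrb2 were among the partners called higher, at 0.66 (adjusted p-value 0.00347) and 0.72 (0.000619). Tbk1, the kinase to which DTX4 has been linked, was at 83.9, 82.1 and 87.8 CPM in oil and 109, 107 and 90.1 CPM in tamoxifen, and the groups did not overlap (log2 fold change 0.27, SE 0.10, edgeR adjusted p-value 0.197). Parp1, the main nuclear poly(ADP-ribose) polymerase, was at 674 to 717 CPM in oil and 458, 379 and 694 CPM in tamoxifen (log2 fold change -0.43, SE 0.20, edgeR adjusted p-value 0.263). Of the genes tied to DTX1 in T cell anergy, 4 were tested. Rnf128, the ubiquitin ligase GRAIL, rose from 62.1, 83.9 and 76.7 CPM to 152, 154 and 107 CPM (log2 fold change 0.89, SE 0.17, edgeR adjusted p-value 0.0434), with adjusted p-values from 7.16e-05 to 0.209 over the alternatives and, of the fits without 1 library, a call only without tamoxifen 4. Cblb, another ubiquitin ligase of that group, had 0.67 (SE 0.14, edgeR adjusted p-value 0.0528) and was called by edgeR without tamoxifen 4, at 0.78 (adjusted p-value 0.000792), with upper-quartile scaling (0.0458) or without a low-count filter (0.0347), and with DESeq2 (0.00126).

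**Figure D4:**
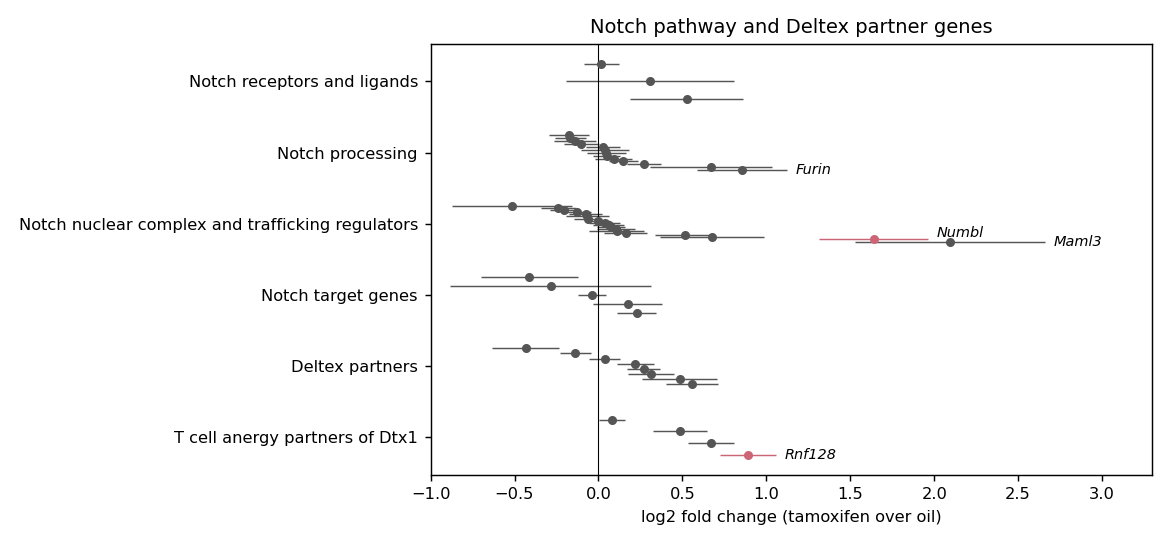
Log2 fold change of tamoxifen over oil (x axis) of each tested gene of the 6 lists (y axis), with bars of 1 SE, in red where the edgeR adjusted p-value was under 0.05. Only Numbl at 1.64 and Rnf128 at 0.89 were past that threshold, and most of the other genes lay near 0.

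The genes whose values were most like those of Dtx4 were found by the root mean square difference, over the 6 libraries, of log2 CPM relative to each gene's oil mean. Among 11137 genes, the closest were Cyp11a1, the side-chain cleavage enzyme of steroid synthesis (difference 0.55), Esrrb, an orphan nuclear receptor (0.70), Adgrl3, the adhesion receptor latrophilin 3 (0.73), Ston2, an endocytic adaptor (0.74), and the non-coding Gm14005 (0.75). On this log2 scale Dtx4 stood 4.65, 4.30 and 4.196 above its oil mean in tamoxifen 1, 2 and 4, and Cyp11a1 4.56, 4.83 and 3.45. Cyp11a1 fell off in tamoxifen 4, as did Ston2 and Gm14005, and Adgrl3 in tamoxifen 2. In oil 3 Dtx4 was 0.998 above the oil mean, and Esrrb and Adgrl3 were 0.65 and 0.57 above it. Esrrb and Gm14005 had few counts in oil, at most 0.218 CPM, so their oil values are imprecise. With a prior count of 0.5 in place of 2, and separately with a minimum mean of 5 CPM, 3 of these 5 genes were among the closest 5.

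**Figure D5:**
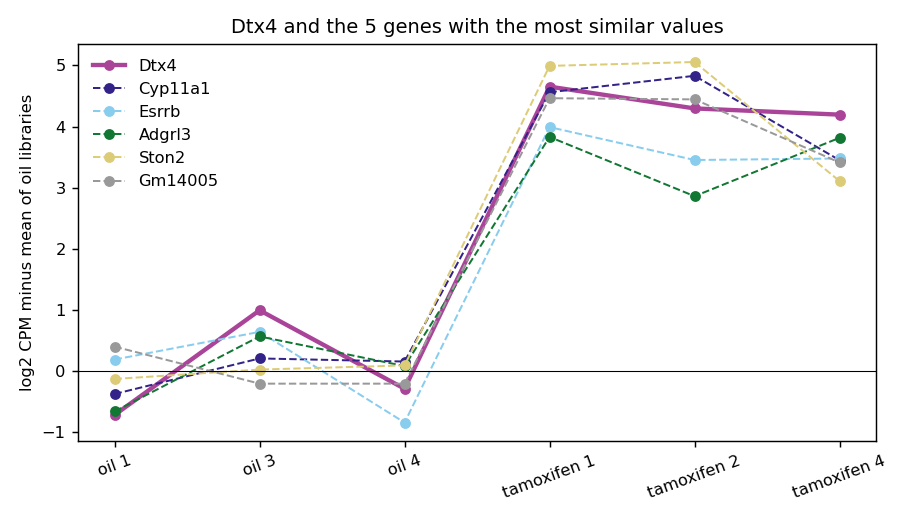
Log2 CPM minus the mean of the oil libraries (y axis) in each library (x axis) for Dtx4 (solid line) and the 5 genes with the smallest root mean square difference from it (dashed lines). Lines only join the values of a gene. Dtx4 was 4.196 to 4.65 above its oil mean in tamoxifen and 0.998 above it in oil 3.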

How the data were processed

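RNA-seq was performed on sorted AE9a cells, 3 libraries per group, which the study calls biological replicates. The deposited values were estimated counts per gene symbol, which the authors made from paired-end reads with STAR and DESeq2 on mm10, per the submitters' processing notes; the counting program, strand setting and annotation are not given in the sources used here. The authors did not scale the counts between libraries.

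Sample titles give oil the numbers 1, 2, 4 and tamoxifen 1, 3, 4, but the count columns are numbered 1, 3, 4 for oil and 1, 2, 4 for tamoxifen. Column numbers are used here, and oil 3 and tamoxifen 2 were assigned by group alone.

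Counts were rounded and fitted in R 4.3.3 with edgeR 4.0.16 (filterByExpr by group, TMM, quasi-likelihood F test, no block) over 11614 genes, with Benjamini-Hochberg adjustment over all of them. DESeq2 1.42.0 and limma 3.58.1 (voom) were alternatives. SE was derived from the F statistic. Log2 CPM used a prior count of 2. The edgeR step was tested on simulated data. Positions and lengths were from GENCODE M21 (mm10), and gene order and distances to neighbors from RefSeq GRCm38.p6. Levels per kilobase used the APPRIS principal transcript. Spreadsheet dates stood in place of 26 symbols.

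The members and lists were chosen with earlier results of these data known. Named are the members, Usp18, neighbors, the 5 genes most like Dtx4 and, of each list, the called genes and the 2 with the largest absolute log2 fold change. Notch1, Notch2, Notch3, Rbpj, Hes1, Tbk1, Parp1, Kit, Runx1, Cd34 and Nkg7 were added after their values were seen. Simple counting floors cover counting error only. ATAC-seq was not analysed here.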

Additional observations from a re-analysis of the deposited data

How the results depend on the processing

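The log2 fold change of Dtx4 was 4.21 as reported and 4.199 to 4.36 under the other normalizations, filters, tools and unrounded counts, the last of which were added after the data were seen. It ran from 3.91 to 4.89 when 1 library was left out, the highest without oil 3. Dtx3l, Dtx3 and Dtx2 were positive under all the alternatives run, at 0.30 to 0.51, 0.27 to 0.48 and 0.15 to 0.27 when 1 library was left out. The members called higher were 1 by edgeR as reported, 2 with the DESeq2 Wald test, and 0 to 3 by edgeR when 1 library was left out. Nothing is read from these counts, because the family was chosen for Dtx4 in this contrast.

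Over all genes, 203 were called higher and 31 lower, against 713 and 231 with the DESeq2 Wald test, 48 and 6 with limma-voom, 372 and 61 without a low-count filter and 120 and 17 at a mean of at least 50 counts. Leaving out 1 library gave 8 to 2278 higher and 0 to 2024 lower by edgeR, and before adjustment 1373 to 5501 genes had p under 0.05, and both upper values came without tamoxifen 4. Of the Notch pathway and partner genes, 2 were called higher, against 6 with DESeq2, 0 with limma-voom, 0 at a mean of at least 50 counts, where Numbl and Rnf128 were at adjusted p-values of 0.0547 and 0.0522, and 0 to 17 higher and 0 to 3 lower when 1 library was left out, each fit with its own tested genes. The cause was not tested.

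Only numbers 1 and 4 occur in both groups. The correlation of deviations from the group means was -0.13 for number 1 and 0.06 for number 4, and a number was not taken as a pairing. Under the replicate block the log2 fold change of Dtx4 was 4.93, 1 of the Notch pathway and partner genes was called higher, and the signs of Oas2 (-0.11), Rasa4 (0.021), Hspbap1 (-0.091) and Hey2 (0.53) were reversed.

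The sign of Oas2 was also reversed with limma-voom (-0.00062). When 1 library was left out, Oas2 ran from -0.21 to 0.38, Polr2j from -0.042 to 0.073, Osbp from -0.070 to 0.059, Notch4 from -0.050 to 0.66 and Hey2 from -0.70 to 0.14. None of these genes was called. For the 47 genes other than members that were named by rule, there were 649 values under an alternative. Of these, 577 kept their direction and side of the threshold, 34 lost and 24 gained a call, and 14 reversed sign. Genes added after their values were seen are not in this tally. With groups of 3, 1 library can decide a call. Depth limits Dtx1, for which 0 counts allow up to 0.177 CPM. Notch1, Notch3, Dll1 and Dll4 were too low to be tested.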
